A study of Mus musculus with 6 samples.

Results

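GABA-A receptors are chloride channels of the cell membrane, each built from several subunits around a pore, and phenobarbital, a barbiturate, prolongs the time that GABA holds them open. Alpha and beta subunits form the GABA binding sites, gamma subunits are needed for benzodiazepine binding and for clustering at synapses, and rho subunits form receptors of their own, best known from the retina, which barbiturates hardly affect. In embryonic cortex GABA depolarizes progenitors and young neurons, because their chloride concentration is high, and it acts there before synapses have formed. The RNA of 8 subunit genes was followed here: the alpha genes Gabra2, Gabra3, Gabra4 and Gabra5, the beta gene Gabrb2, the gamma gene Gabrg3 and the rho genes Gabrr1 and Gabrr2. They were chosen by symbol, and their probes are those whose accession RefSeq assigns to one of these genes, 10 probes of the 55681 on the array and 8 of the 20145 genes it names.

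The phenobarbital group came from C57BL/6N dams injected intraperitoneally with 80 mg/kg of the drug, from a solution of 8 mg/mL, in paired doses 6 h apart on embryonic days 10 and 11, and the control group from dams of the same strain given saline on that schedule. Embryos were taken on embryonic day 12 per the protocol (E12.5 in the sample labels), and neocortical cells, labelled as neural progenitor cells, were dissociated and kept on coated plates for 4 h before RNA isolation. Each group holds 3 Agilent arrays of 1 colour. Nothing in the labels says that the replicates came from different litters or platings, so the p-values reflect the spread among the arrays, possibly a technical one. In a mixed cell sample fewer cells of a type and less RNA per cell cannot be told apart.

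The array that stood apart was control replicate 2, whose correlation with the other controls over tested probes was 0.982 and 0.987, against 0.995 between control replicates 1 and 3. All 3 phenobarbital arrays and control replicate 1 shared slide 1, while control replicates 2 and 3 were on slides 2 and 3. Phenobarbital arrays were brighter as scanned, with a 75th percentile of the signal of 1803 to 1862, against 1116 to 1291 on control arrays, so every level below is a log2 signal relative to its own array's 75th percentile. All 13 markers of cortical radial glia were well above background on all 6 arrays. Their summed signal, in units of the 75th percentile, was 427 to 504 with phenobarbital, against 530 to 589 in controls. Of these 13, 1 was lower, 1 was higher and 11 did not pass. The 16 neuronal markers, all above background, summed to 220 to 248 with phenobarbital, against 318 to 353 in controls, and 5 of them fell, none rose and 11 did not pass. In the list of choroid plexus and hem genes, 7 of 10 were above background on all arrays and summed to 16.4 to 27.2 with phenobarbital, against 4.61 to 11.2 in controls. Of 10 ventral telencephalon markers 6 were above background on all arrays, with overlapping sums (36.7 to 43.4 with phenobarbital, against 38.8 to 49.6 in controls), and Nkx2-1 was below background on every array. Of 11 diencephalon and eye markers 5 were above background on all arrays, also with overlapping sums (4.97 to 6.45 with phenobarbital, against 5.01 to 6.37 in controls), and Six6, Barhl2 and Gbx2 were among those below background on every array. Red blood cell, mural and endothelial markers, all above background, also had lower sums with phenobarbital (693 to 788, 31.5 to 38.0 and 51.0 to 60.4, against 1059 to 1733, 55.8 to 60.5 and 84.8 to 90.4 in controls). The 10 microglia and macrophage markers, all above background, had overlapping sums (8.96 to 11.7 with phenobarbital, against 8.94 to 11.3 in controls), with 5 lower, 1 higher and 4 that did not pass. Of 7 Cajal-Retzius markers 6 were above background on all arrays. Their sums overlapped (9.33 to 11.3 with phenobarbital, against 10.6 to 15.5 in controls). Of the 7, 2 were higher, 0 lower and 5 did not pass, and the fold change was below 0 for 3. Reln, among the 2 that were higher, was tested only through the phenobarbital group, where it was brighter. Its rise is therefore no support for a direction of these markers. The 6 intermediate progenitor markers summed to 87.8 to 94.1 with phenobarbital, against 120 to 125 in controls. Of these 6, 1 was lower, 0 were higher and 5 did not pass. The part that these cell types play in the subunit values was not tested.

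Every one of the 8 genes had a probe that the software called well above background on all 6 arrays. Of the 10 probes, 8 were above background on all arrays, the second Gabrg3 probe was above it on none, and the second Gabra3 probe was above it on the 3 control arrays and on no phenobarbital array. The 9 probes that passed on every array of at least 1 group were tested. With limma and Benjamini-Hochberg adjustment over all 34672 probes tested, 2 of the 9 were lower with phenobarbital, none was higher and 7 did not pass. At an unadjusted p below 0.05 the counts were 3 lower and 0 higher. Over all probes 16.2% were called, 9.24% lower and 6.96% higher, against 22.2% of these 9 lower. The second Gabra3 probe, tested only through the controls, is 1 of the 2 that were lower. Of the 8 probes above background on all arrays, 1 was lower and 0 were higher. The median log2 fold change of the 9 probes was -0.15, the same to 2 decimals as the -0.15 of all probes tested. The fold change was below 0 for 5 of the 9 probes, against 65.7% of all probes, and the unadjusted p was below 0.05 for 35.2% of all probes. The groups did not overlap for 3 of the 9 probes (33.3%), against 44% of all probes. The second Gabra3 probe is counted among these 3 and among the 3 with an unadjusted p below 0.05.

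**Figure D1:**
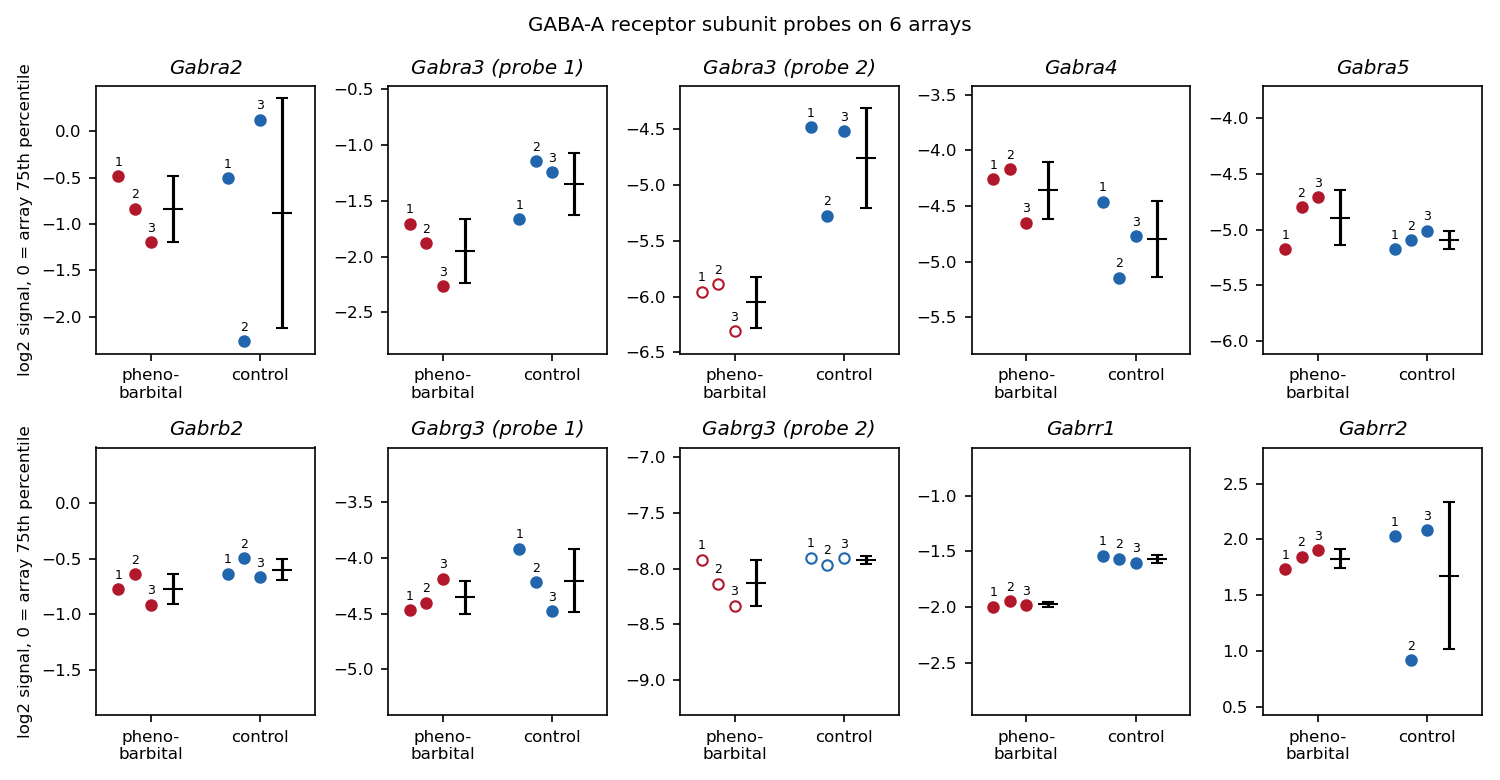
Log2 signal of the 10 subunit probes relative to each array's 75th percentile, phenobarbital arrays in red on the left and control arrays in blue on the right of each panel, which has its own axis; digits are replicate numbers, bars are mean ± SD (n = 3), and open circles are spots not well above background. The groups are apart for Gabrr1 and for both Gabra3 probes, and control replicate 2 lies far below the other controls for Gabra2 and Gabrr2.

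Both subunit genes with a probe that fell are shown with the DNA around their annotated transcription start, 250 bases before it to 50 after it, as given by RefSeq for GRCm38.p6. Capitals mark CG dinucleotides and the letters TATAAA (written TTTATA where they lie on the other strand).
Gabra3 promoter, chrX:72656870-72657169, minus strand: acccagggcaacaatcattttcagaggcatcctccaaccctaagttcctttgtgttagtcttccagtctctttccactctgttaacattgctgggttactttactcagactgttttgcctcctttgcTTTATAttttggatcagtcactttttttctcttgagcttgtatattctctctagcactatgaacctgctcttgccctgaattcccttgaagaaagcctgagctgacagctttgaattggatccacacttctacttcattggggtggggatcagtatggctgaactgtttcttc
Gabrr1 promoter, chr4:33132306-33132605, plus strand: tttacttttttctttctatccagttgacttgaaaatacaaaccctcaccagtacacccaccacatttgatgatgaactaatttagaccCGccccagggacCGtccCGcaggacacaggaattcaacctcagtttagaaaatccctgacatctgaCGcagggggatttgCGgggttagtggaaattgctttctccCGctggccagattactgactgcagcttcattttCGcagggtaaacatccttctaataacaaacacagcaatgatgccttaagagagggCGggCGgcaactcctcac
The Gabra3 window holds 0 CG, as do 5.43% of the 32851 windows of this length in the table, and 1 TATAAA on the opposite strand, which 13.6% of windows hold on either strand. The Gabrr1 window holds 9 CG, against a median of 7 over all windows, and no TATAAA on either strand. Gabra3 has a second annotated start with a window of its own, and the arrays do not tell which start was used.

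Gabra3 encodes an alpha subunit that is abundant in the brain before birth, and it was read by 2 probes, A_55_P1963463 (the first) and A_55_P2112772 (the second). The first probe gave log2 levels of -1.70, -1.88 and -2.26 in phenobarbital replicates 1 to 3, against -1.67, -1.15 and -1.24 in control replicates 1 to 3. Every phenobarbital array lay below every control array, though phenobarbital replicate 1 and control replicate 1, which share a slide, were close. The log2 fold change was -0.60 ± 0.20 (SE, n = 3 per group), 0.661-fold with a 95% interval of 0.471 to 0.927, which missed the threshold (limma, adjusted p = 0.0903).

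The second Gabra3 probe gave -5.96, -5.89 and -6.31 with phenobarbital, none of them well above background, against -4.48, -5.28 and -4.52 in controls, all of them above it. It fell by 1.29 ± 0.25 on the log2 scale (limma, adjusted p = 0.0233). Its group means were -6.05 ± 0.23 in the phenobarbital arrays and -4.76 ± 0.45 in the control arrays (SD, n = 3 each). The limma fit gave 0.408-fold with an interval of 0.271-fold to 0.615-fold. With the phenobarbital signals raised to the dimmest signal called above background on each array, where they lay below it, the means were 2.26-fold apart. That value leaves out the spread among arrays and is no lower limit on the fall. This probe passed the filter only through the group where it was brighter, and its fall is therefore no support for a direction of the subunit genes. Leaving out any array other than control replicate 2 ended the call (limma, adjusted p = 0.0605 to 0.0779), as did quantile normalization (-1.22, 0.0618). Among the 8 probes above background on all arrays, 1 fell.

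Agreement between the Gabra3 probes can be read only in part, because the second was not above background on any phenobarbital array and has no measured gap to the first there. In controls, where both were measured, the first exceeded the second by 2.82, 4.13 and 3.28 in replicates 1 to 3. The slide as a block leaves control replicate 1 as the single control against the 3 phenobarbital arrays, since control replicates 2 and 3 are alone on their slides. The first probe then had -0.28 ± 0.26 (limma, adjusted p = 0.522).

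Gabra2, which also encodes an alpha subunit abundant in the brain before birth, had the widest spread of the tested subunit probes. Its log2 levels were -0.49, -0.83 and -1.19 with phenobarbital, against -0.51, -2.27 and 0.13 in controls. Control replicate 2 was the lowest of the 6 arrays and control replicate 3 the highest, so that the phenobarbital values fell between them. The log2 fold change was 0.04 ± 0.59 (limma, adjusted p = 0.966), and its interval, 0.383-fold to 2.78-fold, left changes of either sign unresolved. Without control replicate 2 the value was -0.65 ± 0.27 (0.138).

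Gabra4 encodes an alpha subunit best known from receptors outside synapses, in the adult thalamus and hippocampus, and Gabra5 one that is prominent in the hippocampus. Gabra4 levels were -4.26, -4.17 and -4.65 with phenobarbital, against -4.46, -5.14 and -4.77 in controls. Its groups overlapped through phenobarbital replicate 3, with a log2 fold change of 0.43 ± 0.21 (limma, adjusted p = 0.200). For Gabra5 the levels were -5.17, -4.80 and -4.71 with phenobarbital, against -5.17, -5.09 and -5.01 in controls. Phenobarbital replicate 1 and control replicate 1 were equal to 2 decimals, and the log2 fold change was 0.20 ± 0.15 (adjusted p = 0.381). With the normexp background correction they had log2 fold changes of -0.03 (Gabra4) and -0.28 (Gabra5), neither of which passed.

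Gabrb2 encodes a beta subunit, of the class that carries part of the GABA binding site and is needed for a working channel. Its log2 levels were among the tightest here, at -0.77, -0.64 and -0.91 with phenobarbital, against -0.64, -0.49 and -0.67 in controls. Phenobarbital replicate 2 lay within the control range. The log2 fold change was -0.18 ± 0.12 (limma, adjusted p = 0.329), with an interval of 0.726-fold to 1.08-fold.

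Gabrg3 encodes a gamma subunit of restricted distribution in the brain. Its probe A_55_P2053251 had levels of -4.47, -4.40 and -4.19 with phenobarbital, against -3.92, -4.22 and -4.48 in controls, and the groups overlapped. The log2 fold change was -0.15 ± 0.17 (limma, adjusted p = 0.572), equal to the median of all probes. Its other probe, A_55_P2112795, lay between -8.33 and -7.92 with phenobarbital, against -7.96 to -7.90 in controls, and was not well above background on any array, so it has no fold change.

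The rho genes Gabrr1 and Gabrr2 are neighbours on their chromosome. Gabrr1 was the only one of the 8 probes above background on all arrays to pass the threshold. Its levels were -1.99, -1.95 and -1.98 with phenobarbital, against -1.54, -1.56 and -1.60 in controls. The groups were apart by more than the spread within either (-1.98 ± 0.02 with phenobarbital and -1.57 ± 0.03 in controls, SD, n = 3 each). Gabrr1 fell by 0.41 ± 0.09 on the log2 scale, 0.754-fold with an interval of 0.645 to 0.881 (limma, adjusted p = 0.0361). The ± 0.09 is the SE of limma, from a variance drawn towards that of all tested probes, not from the spread of this probe alone. Relative to the median of all probes the log2 fold change was -0.26.

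The sign of the Gabrr1 value rests on the scaling between arrays. This scaling moves all probes of an array by the same amount, so the distance to their median is kept by construction. Before any scaling its deposited signals were 465, 482 and 456 with phenobarbital, against 445, 377 and 396 in controls, so that each phenobarbital array was above each control array. Without scaling its log2 fold change was 0.21 ± 0.13 (limma, adjusted p = 0.201), while the median of all probes was 0.47. Relative to that median it was -0.26, as with scaling. It passed after quantile normalization (-0.39, adjusted p = 0.0415). It did not pass with scaling to the median (-0.36, 0.105), with the percentile taken over spots above background on all arrays (-0.31, 0.0795), with normexp (-0.33, 0.0625) or with the slide as a block (-0.44, 0.198). Leaving out any array other than control replicate 2 also ended the call, with adjusted p-values of 0.0732 to 0.123 (limma). The log2 fold change was -0.42 to -0.39 with any 1 array left out. Over these settings the share of rises among all called probes was 59.0% after quantile normalization, 62.7% with the median, 66.6% with the percentile over bright spots, 26.2% with normexp and 98.5% without scaling, against 43.0% in the fit reported here.

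Gabrr2 had levels of 1.73, 1.84 and 1.90 with phenobarbital, against 2.03, 0.91 and 2.08 in controls. As for Gabra2, control replicate 2 was the lowest of the 6 arrays, and the other controls lay above all phenobarbital arrays. The log2 fold change was 0.15 ± 0.32 (limma, adjusted p = 0.764), and without control replicate 2 it was -0.23 ± 0.11 (0.178). Among 15161 other genes with values on all 6 arrays, the patterns most like it were those of Diras1, Olfr332 and Pebp1 (Pearson's r = 0.996, 0.994 and 0.993 over the 6 arrays). In all 77 genes had an r above 0.95, and the points share the low value of control replicate 2.

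**Figure D2:**
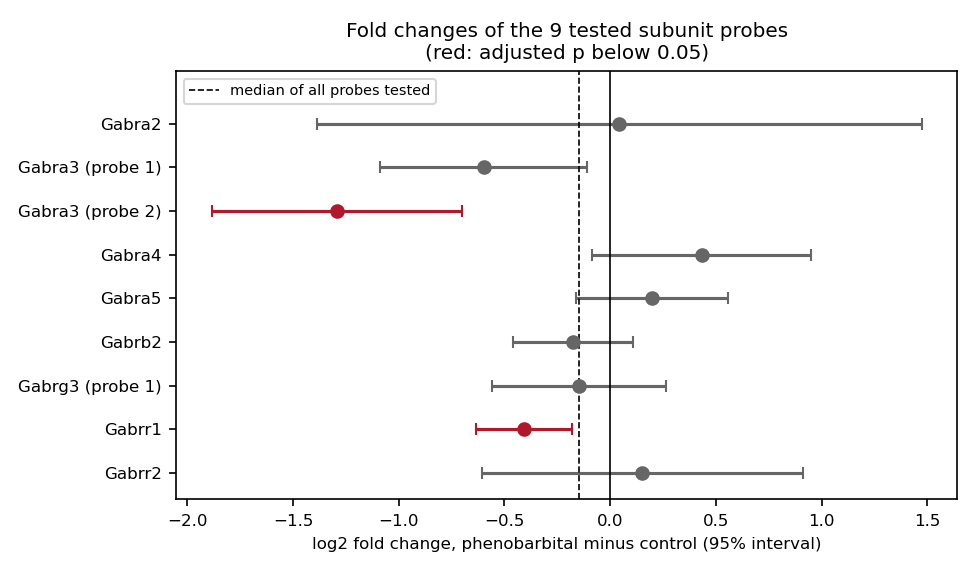
Log2 fold change, phenobarbital minus control, of the 9 tested subunit probes, with 95% intervals from limma; the dashed line is the median of all 34672 probes tested. The intervals of Gabrr1 and the second Gabra3 probe, both in red, lie below 0 with adjusted p-values of 0.0361 and 0.0233, that of the first Gabra3 probe lies below 0 with 0.0903, and the interval of Gabra2 is the widest.

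Within slide 1, the level of control replicate 1 lay above all 3 phenobarbital arrays for 6 of the 9 probes (both of Gabra3, Gabrb2, Gabrg3, Gabrr1 and Gabrr2), against 49.8% of all probes with values, and inside their range for Gabra2, Gabra4 and Gabra5. For Gabrb2 the control was above the highest phenobarbital array only in the third decimal, and the second Gabra3 probe was not above background in the phenobarbital arrays. The software's own error for these spots was at most 26.6% of the signal, and 10.1% at each Gabrr1 spot.

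**Figure D3:**
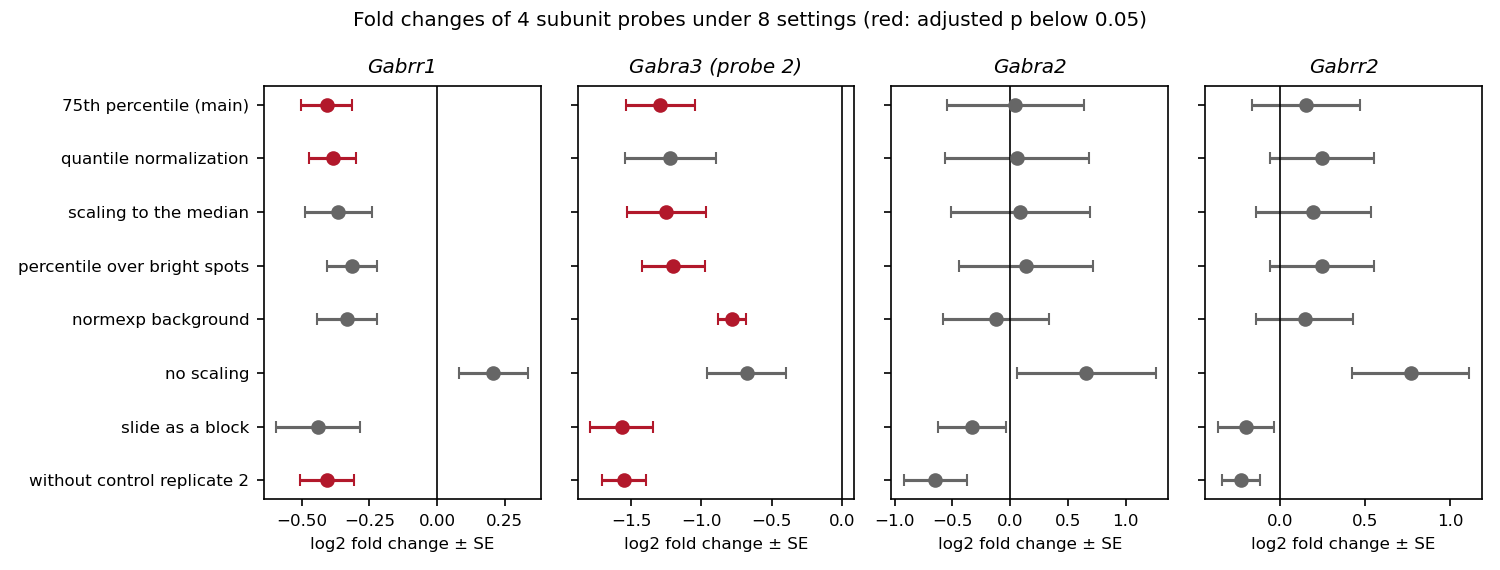
Log2 fold change ± SE (x axis, different in each panel) of 4 subunit probes under 8 settings, in red where the adjusted p was below 0.05. Gabrr1 changes sign without scaling (0.21), against a median of all probes of 0.47 there, the second Gabra3 probe was not above background on any phenobarbital array, and Gabra2 and Gabrr2 turn negative without control replicate 2 (-0.65 and -0.23).

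A further 7 subunit genes had no probe above background on every array of a group and were not tested. Gabra6, Gabre and Gabrq, genes of alpha, epsilon and theta subunits, were not above background on any array. Gabrb1 was above it on 1 phenobarbital array and 1 control array, Gabrg1 on 1 phenobarbital array and no control array, Gabrp on no phenobarbital array and 1 control array, and Gabrr3 on 1 phenobarbital array and 2 control arrays. Where a probe of these genes was not above background, RNA was not detectable by that probe on that array, which does not show that it is absent.

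Around the receptor, 47 genes of the GABA pathway were set out in 5 lists, and the probe with the highest mean signal stood for each gene. Of these, 42 could be tested: 7 were lower with phenobarbital, 0 were higher and 35 missed the threshold (limma, adjusted over all probes). At an unadjusted p below 0.05 the counts were 13 lower and 3 higher, where 35.2% of all probes were below that p in either direction. The fold change was below 0 for 28 of the 42, against 65.7% of all probes. The 7 falls are 16.7% of the 42, against 10.1% lower over 1 probe for each of 25303 names. The median log2 fold change of the 42 was -0.17, and that of all names -0.17. The number that passed changed with the arrays used. Without control replicate 2, 9 passed (8 lower and 1 higher), and without any other array 1 or 2 did. Over all probes 5617 were called, against 5973 without control replicate 2 and 1357 to 2502 without any other array. These counts do not show whether the falls themselves depend on single arrays, which was not tested. Without scaling between arrays 15 pathway genes were higher and 1 lower, where 98.5% of all called probes were higher. The neuronal markers that were lower with phenobarbital are given above, and their part in these falls was not tested.

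Among 20 genes of receptor anchoring, trafficking and assembly, Gabarapl1, a relative of the GABA-A receptor-associated protein that also works in autophagy, fell by 0.58 ± 0.13 (limma, adjusted p = 0.0358), and 19 did not pass. Their median was -0.05. Other probes of 2 genes in this list rose while the brighter probe did not pass: Gabarap by 1.47 ± 0.24 (adjusted p = 0.0158), with -0.14 on its brighter probe, and Arfgef2, a regulator of vesicle traffic, by 1.14 ± 0.12 (0.00468), with 0.13 on its brighter probe. These probes were picked after their values were seen.

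In the list of GABA-B receptors, the G protein-coupled receptors for GABA, and their auxiliary subunits, 2 of 5 tested genes fell and 3 did not pass. Gabbr2, the subunit that couples to the G protein, had log2 levels of -1.98, -2.19 and -2.67 with phenobarbital, against -0.94, -1.49 and -0.94 in controls. All phenobarbital arrays lay below all controls, and the gene fell by 1.16 ± 0.24 (limma, adjusted p = 0.0271). Its other 2 probes were not above background on every array of either group. Kctd12, an auxiliary subunit that speeds desensitization, fell by 0.58 ± 0.11 (0.0256).

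Of 9 tested genes of GABA synthesis, release, uptake and breakdown, Aldh9a1, an aldehyde dehydrogenase that can make GABA from aminobutyraldehyde, fell by 0.68 ± 0.15 (limma, adjusted p = 0.0330), and 8 did not pass. Gad1 and Gad2, the enzymes that make GABA from glutamate, were above background on all 6 arrays, with log2 fold changes of -0.45 ± 0.38 and -0.35 ± 0.56. Among 6 tested genes of endogenous modulators, Hsd3b1, a steroid dehydrogenase of the path to progesterone and neurosteroids, had levels of -3.63, -3.43 and -3.47 with phenobarbital, against -1.81, -1.91 and -1.99 in controls. It fell by 1.61 ± 0.11 (adjusted p = 0.00217), the smallest adjusted p of the pathway genes. Near-identical Hsd3b copies may share its probe. Dbi, the acyl-CoA binding protein that binds the benzodiazepine site, fell by 0.57 ± 0.14 (0.0449), while its dimmer probe had -0.23 and missed the threshold.

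The chloride cotransporters, which set the direction of the current through GABA-A receptors, were measured for the importer and the exporter. Slc12a2 (NKCC1), the importer, fell by 0.57 ± 0.12 (limma, adjusted p = 0.0279). Slc12a5 (KCC2), the exporter, had log2 fold changes of 1.45 ± 0.55 and -0.06 ± 0.18 on its probes, neither of which passed, and the difference between these genes was not tested.

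**Figure D4:**
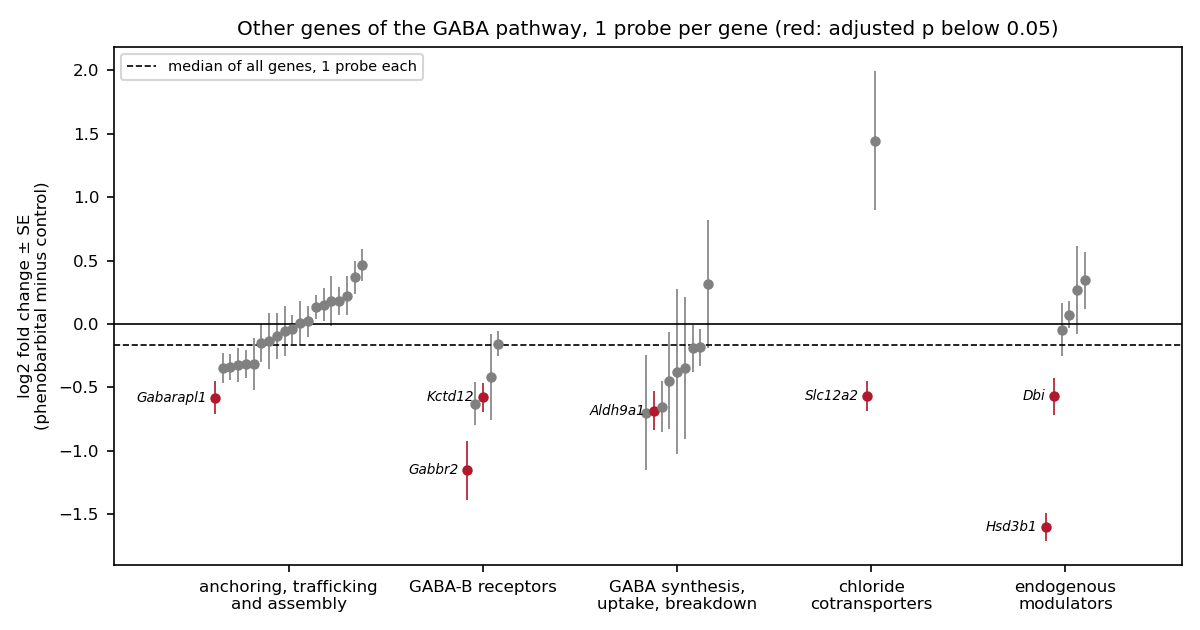
Log2 fold change ± SE, phenobarbital minus control, of 42 tested genes in 5 lists of the GABA pathway, 1 probe per gene, with the 7 that fell in red and named; the dashed line is the median of all names. No gene of these lists rose on the probe shown, though dimmer probes of Gabarap and Arfgef2, not shown, did. The lowest value is that of Hsd3b1 (-1.61).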

How the data were processed

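Cy3-labelled RNA (from 0.2 µg, per the labels' protocols) was hybridised to a design annotated with mm9. The authors read the arrays with Agilent's software, version 10.7.3.1 per the file headers and 10.7 per the submitters' processing notes. It gave each deposited spot a linear intensity, already corrected for background and for spatial trends of the array, per the file headers. Deposited beside them is a table of the authors on the log2 scale. Its differences between arrays matched the processed signals to within 1.6e-06 for 99% of probes with 1 spot, which settles scale and direction. Each of its probes is centred on an unknown constant. Its column medians were -0.02, -0.09 and -0.08 for phenobarbital replicates 1 to 3 and 0.08, 0.10 and 0.09 for control replicates 1 to 3.

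Processed signals were divided by the 75th percentile of the array over 59305 non-control spots and taken to log2, without the 98 to 198 outlier spots per array. No non-control spot was saturated. Names came from RefSeq (GRCm38.p6), which held the accessions of 26582 probes. Tested probes were those well above background throughout at least 1 group, with at least 2 values per group. The fit was lmFit and eBayes of limma 3.58.1 (R 4.3.3), two-sided, with no covariates, a threshold of 0.05 on the Benjamini-Hochberg adjusted p over every probe, and fold changes as phenobarbital minus control. It was also run on simulated data with independent noise for each probe, which hold no effect of slide or scaling. For a fold value with a floor under dim signals, the mean of the brighter group was set against that of the dim group. Each array of the dim group entered with the higher of the dim probe's signal and the lowest signal among probes above background. The spread among arrays does not enter this value. All subunit probes were named, and pathway genes past the threshold. Markers are given as sums. The members and lists were chosen with earlier results of these data known, and some subunit genes are not reported here. Other settings changed the background correction, scaling, filters, probe choice, variance prior, array weights, source of values, slide and replicate blocks, and left out each replicate. The normexp correction used median spot signals. The number of arrays limits the precision.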

Additional observations from a re-analysis of the deposited data

How the results depend on the processing

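The count of called probes, 5617, became 8996 with normexp, 3639 with scaling to the median, 1929 with no filter on dim probes, 14929 with array weights (which did not converge), 1094 with the slide as a block and 14712 without scaling, a setting added after the data were seen. The count among subunit probes, 2, became 1 with normexp, quantile normalization, scaling to the median, the percentile over bright spots, the slide as a block, 1 probe per gene and the filter on all 6 arrays, and 0 with no filter; the last 2 settings that give 1 leave out the second Gabra3 probe by construction. Without scaling 3 subunit probes passed, all upward (Gabra4, Gabra5 and Gabrb2), in a setting where the median of all probes was 0.47 and 98.5% of called probes were higher. The count among pathway genes, 7, became 3 with scaling to the median, 1 with no filter, 1 with the slide as a block, 16 with array weights and 16 without scaling (15 higher and 1 lower). Pathway genes passed in both directions with quantile normalization (2 higher and 3 lower) and with the mean of a gene's probes (2 higher and 6 lower). The same held with the percentile over bright spots (1 higher and 5 lower) and with array weights (3 higher and 13 lower). Leaving out 1 array gave 1357 to 5973 called probes, 0 to 2 subunit probes and 1 to 9 pathway genes. Without control replicate 2 the counts were 5973, 2 and 9 (8 lower and 1 higher), and without any other array they were 1357 to 2502, 0, and 1 or 2.

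Both groups carry replicate numbers 1 to 3. Deviations from the group means correlated at 0.06, -0.16 and -0.32 between samples of the same number, so the numbers were not taken as pairs. With the replicate number as a block, 577 probes, 0 subunit probes and 1 pathway gene passed, with adjusted p-values of 0.150 for Gabrr1 and 0.0892 for the second Gabra3 probe.

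The second Gabra3 probe, which entered the test through the controls alone, did not pass in 9 of 20 alternatives. Its sign there is no sign of stability. Gabrr1 was negative in 22 of 23 and did not pass in 12. Signs turned without scaling for Gabrr1 (0.21), Gabrb2 (0.44), the first Gabra3 probe (0.017) and Gabrg3 (0.47), by the shift of all probes. Relative to the median of all probes these values were -0.26, -0.03, -0.45 and 0.0004, as with scaling by construction. The signs turned with normexp for Gabra2 (-0.12), Gabra4 (-0.031) and Gabra5 (-0.28), and with array weights for Gabra2 (-0.15) and Gabrr2 (-0.21). They also turned with the slide as a block for Gabra2 (-0.33) and Gabrr2 (-0.20) or as a random block for Gabra2 (-0.077). Leaving out 1 array gave -0.65 to 0.55 for Gabra2 and -0.23 to 0.36 for Gabrr2. The causes of the other sign changes were not tested.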
